A study of Homo sapiens with 6 samples.

Results

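The histone genes on this array were followed in IMR32 cells, a line long established from a human neuroblastoma, after teriflunomide, an inhibitor of dihydroorotate dehydrogenase, the mitochondrial enzyme of pyrimidine synthesis. Members were all probe sets whose single gene symbol begins with H1-, H2A, H2B, H3-, H3C, H4-, H4C or HIST in the platform annotation, which gave 78 of the 54675 probe sets and 59 genes. By the same rule 51 probe sets were replication-dependent (H1-1 to H1-6 and the H2AC, H2BC, H3C and H4C genes) and 27 were variants (every other member). Of the 78, 6 read a pseudogene or, in 1 case (H1-10-AS1), an antisense RNA that shares only the letters of the name. One group of 3 arrays came from cells given 0.1% DMSO, the solvent control, and the other group of 3 arrays from cells given 118 µM teriflunomide. Both groups were treated for 24 h, starting 12 h after seeding, and the labels do not say if DMSO was present in the wells with the drug. The labels call the arrays biological replicates without saying that they came from separate cultures, so the p-values rest on array-to-array spread alone, and that spread may be technical. All 6 arrays are of 1 cell line, and total RNA of whole cultures was measured, so fewer cells making a transcript and less of it per cell cannot be told apart.

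Histones package DNA into nucleosomes: H2A, H2B, H3 and H4 form the core, and H1 binds the linker DNA. The replication-dependent genes lie in clusters, are transcribed mainly in S phase, and give mRNAs that usually end in a stem-loop held by SLBP in place of a poly(A) tail. Variant genes such as H2AZ1 and H3-3A lie singly, are expressed through the cell cycle and give mostly polyadenylated mRNAs. Which primer was used to copy the RNA was not stated in the labels, so which of these mRNA forms the arrays read is unknown.

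Most histone probe sets were dark in these cells. The test took in probe sets that reached the median of the array on 3 or more of the 6 arrays, and 33 of the 78 members passed, for 26 of the 59 genes. The other 45 lay between log2 2.18, the lowest value of every array, and log2 2.92, and 21 of them sat at that lowest value on all 6 arrays. No member passed through 1 group alone. Of the 33 tested, 11 had a mean under log2 5 and 0 of those 11 was called, so every call comes from the 22 brighter ones.

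Of the 33 tested members, 10 were lower and 4 higher with teriflunomide, and 19 did not pass (limma, Benjamini-Hochberg adjusted p under 0.05 over 27290 probe sets). Over all tested probe sets 25.2% were lower and 23.7% higher, so a large part of the array moved in both directions. Replication-dependent members counted 5 lower and 1 higher among 20, a share of lower calls near that background. Variants counted 5 lower and 3 higher among 13. Among probe sets with a mean of at least log2 5, 5 of 11 replication-dependent and 5 of 11 variant members were lower, where 29.2% of all such probe sets were lower and 27.6% higher. The 5 lower variant probe sets belong to H2AX, H2AZ2 and H2BW4P. With 1 value per gene, variants counted 2 lower and 2 higher among 7, and replication-dependent genes 5 lower and 1 higher among 19. Of the 2 higher variant genes, 1 is H2AZ2, whose probe sets moved in both directions. Of the 2 lower, 1 is H2BW4P, annotated as a pseudogene. The shares of all genes were 28.9% lower and 29.7% higher. The median log2 fold change, teriflunomide minus DMSO, was -0.05 for the replication-dependent members, -0.09 for the variants and 0.00 over all probe sets tested. For the replication-dependent members it was -0.43 when only those of at least log2 5 were kept. The 9 dimmer ones stood between -0.56 (H2AC17) and 0.27 (H2BC15). At least 2-fold, 2 members were lower, both of them H2B, and 0 higher, where 5.34% of all tested probe sets were lower and 5.01% higher by that much. All teriflunomide arrays lay below all DMSO arrays in 13 members and above them in 4, against 30.8% and 29.3% of all tested probe sets. In either direction 14 of 33 members were called, beside 48.8% of all probe sets, so the histone members as a whole were not called more often than the array.

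**Figure D1:**
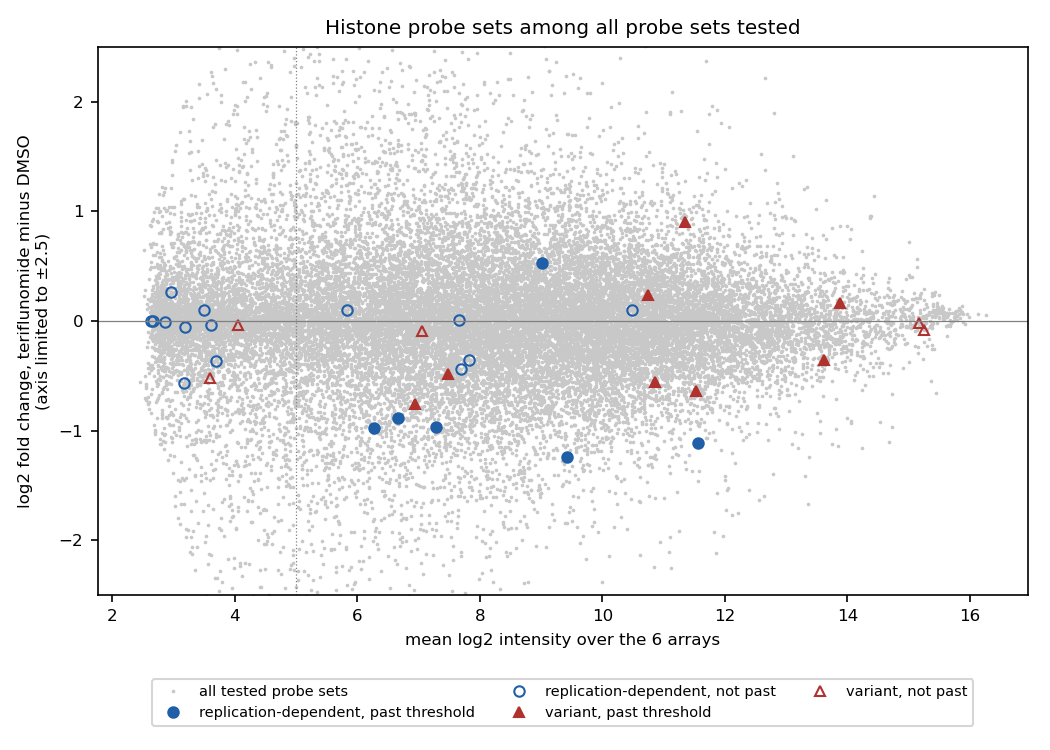
Log2 fold change (teriflunomide minus DMSO) against mean log2 intensity over the 6 arrays for all 27290 tested probe sets (grey), with replication-dependent (circles) and variant (triangles) histone probe sets, filled where the adjusted p was under 0.05; the dotted line marks log2 5 and the vertical axis is limited to ±2.5. All filled symbols lie right of the dotted line, with H2BC12L and H2BC12 lowest and H1-10 highest.

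The H2B genes gave the largest falls. They encode a core histone, and all but H2BC12L among those named here lie in or beside the histone gene clusters in RefSeq's gene order. Of 8 tested H2B members of the replication-dependent class, 4 were lower, 0 higher and 4 did not pass. Their median log2 fold change was -0.70. Of all tested probe sets, 25.2% were lower and 23.7% higher. The 4 that were lower are among the 7 with a mean of at least log2 5, a level at which 29.2% of all probe sets were lower. To show what the genes that fell have in their promoters, the 150 bases before the RefSeq start (GRCh38.p14) are printed for the 3 of these 4 H2B genes that matched RefSeq's promoters by symbol (H2BC12, H2BC6 and H2BC9, not H2BC12L) and for H2AC6, beside those of H2AC25 and H1-10, which rose. Capitals mark matches on either strand to the octamer ATTTGCAT, the Oct-1 (POU2F1) site known from H2B promoters, to TATAAA and to CCAAT.
H2BC12 (chr6:27146859-27147008, minus strand): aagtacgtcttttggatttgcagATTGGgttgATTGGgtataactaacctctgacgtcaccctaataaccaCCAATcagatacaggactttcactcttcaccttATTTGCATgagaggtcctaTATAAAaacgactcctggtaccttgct
H2BC6 (chr6:26183611-26183760, plus strand): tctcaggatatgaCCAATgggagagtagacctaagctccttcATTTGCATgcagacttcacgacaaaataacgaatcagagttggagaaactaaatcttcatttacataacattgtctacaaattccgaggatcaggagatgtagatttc
H2BC9 (chr6:26251464-26251613, plus strand): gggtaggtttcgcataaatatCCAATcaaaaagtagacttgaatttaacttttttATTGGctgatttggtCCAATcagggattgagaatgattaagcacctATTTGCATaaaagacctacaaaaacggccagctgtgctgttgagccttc
H2AC6 (chr6:26124022-26124171, plus strand): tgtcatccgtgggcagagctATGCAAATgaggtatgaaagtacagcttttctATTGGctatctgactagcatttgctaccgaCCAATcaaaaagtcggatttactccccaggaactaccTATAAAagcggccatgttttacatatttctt
H2AC25 (chr1:228457874-228458023, minus strand): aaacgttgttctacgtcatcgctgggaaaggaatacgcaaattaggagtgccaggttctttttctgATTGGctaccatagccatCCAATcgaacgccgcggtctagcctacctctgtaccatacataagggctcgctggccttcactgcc
H1-10 (chr3:129316287-129316436, minus strand): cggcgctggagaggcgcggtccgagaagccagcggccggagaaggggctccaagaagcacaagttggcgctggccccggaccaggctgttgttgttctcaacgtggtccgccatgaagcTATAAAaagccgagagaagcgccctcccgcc

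The octamer began 46 bases before the start in H2BC12, 108 in H2BC6 and 49 in H2BC9, and in H2AC6 it lay on the opposite strand, 130 bases before. Those of H2AC25 and H1-10 held none in the printed window. Over the 250 bases before the start, 10 of 13 replication-dependent H2B promoters and 6 of 8 H2A promoters held the octamer, while 0 of 6 H1, 0 of 6 H3, 0 of 7 H4 and 0 of 11 variant promoters did, against 1.63% of 35116 RefSeq promoters searched the same way. CCAAT stood in 35 of 40 replication-dependent and 10 of 11 variant promoters, and in 32.0% of all. TATAAA stood in 27 of 40 and 5 of 11, and in 10.7% of all. Of 59 histone genes, 51 matched a promoter by symbol. Among the replication-dependent H2A and H2B genes matched to a promoter, the octamer was present in 4 of 4 that fell, in 4 of 6 that did not pass and in 0 of 1 that rose. It was also present in 8 of 10 that were too dim to test. The octamer thus stood in genes that fell and in genes that did not pass, and its link to the falls was not tested. A match to these letters is a description of the sequence and not a measured binding site.

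H2BC12 is read by a probe set with a plain suffix (209806_at), one not marked as shared with other sequences. Its arrays read 12.08, 12.22 and 12.03 log2 in DMSO and 11.02, 11.23 and 10.75 with teriflunomide. Every teriflunomide array lay below every DMSO array, and the change was -1.11 (SE 0.14, limma adjusted p = 0.00177), or 2.16-fold lower. H2BC12L, a near copy of H2B on another chromosome, read 10.03, 10.09 and 10.01 in DMSO and 8.66, 9.03 and 8.72 with teriflunomide. Its change of -1.24 (SE 0.10, limma adjusted p = 0.00051) was the largest fall among the members, 2.36-fold, with no overlap between the groups.

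H2BC6 read 7.79, 7.83 and 7.71 in DMSO and 6.66, 6.93 and 6.83 with teriflunomide, a change of -0.97 (SE 0.08, limma adjusted p = 0.000467). H2BC9 read 6.95, 6.82 and 6.52 in DMSO and 6.19, 5.87 and 5.30 with teriflunomide. It had the widest spread of the 4, and its change of -0.98 (SE 0.25, limma adjusted p = 0.0259) passed only narrowly. That call was lost without DMSO replicate 1 or 2, without teriflunomide replicate 2, and with no filter on dim probe sets, a setting in which 9.98% of all probe sets were lower and 9.31% higher. The 2 H2BC5 probe sets did not pass (-0.36 and -0.43, limma adjusted p = 0.0682 and 0.0663), although on each every teriflunomide array lay below every DMSO array. The first passed under 2 of 15 alternatives (poly-A centring and the replicate block). The second passed under 6: centring on the median, quantile normalization, poly-A centring, trended and robust eBayes, array weights, and without DMSO replicate 2. H2BC21 stood at 0.10, with a 95% interval of -0.37 to 0.56, and H2BC15 was dim.

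H2B coding sequences are nearly alike, and 3 of the 4 H2B members that fell (H2BC12L, H2BC6 and H2BC9) carry the _x_at suffix, by which the maker marks probes that may also bind other transcripts. These 3 are therefore not independent readings of 3 genes. Probe sets annotated to several H2B genes at once, outside the rule, gave 3 lower, 0 higher and 2 not past among 5. Over all tested probe sets the shares were 25.2% lower and 23.7% higher. The largest change among them, on 208490_x_at (H2BC4, H2BC10, H2BC6, H2BC7 and H2BC8), went from 7.56, 7.37 and 7.53 in DMSO to 6.33, 6.35 and 6.32 with teriflunomide. It was -1.15 (SE 0.06, limma adjusted p = 0.000124), beside -0.97 on the H2BC6 probe set; that difference was not tested.

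Replication-dependent H2A members moved in both directions, with 1 lower, 1 higher and 3 not past among 5. H2AC6 read 7.13, 7.28 and 6.91 log2 in DMSO and 6.24, 6.18 and 6.23 with teriflunomide. The groups lay apart, and the fall was -0.89 (SE 0.10, limma adjusted p = 0.00128). Its probe set carries the _s_at suffix, which marks probes shared among transcripts. The neighbour of H2AC6 in RefSeq's gene order is H2BC4, whose own probe set was too dim to test. H2AC25, whose next gene in that order is H2BC26 and which lies apart from the large cluster, read 8.76, 8.75 and 8.73 in DMSO and 9.28, 9.23 and 9.31 with teriflunomide. It rose by 0.53 (SE 0.03, limma adjusted p = 0.000241), the single rise among the replication-dependent members. The 3 that did not pass (H2AC8, H2AC14 and H2AC17) had means under log2 5. Probe sets annotated to several H2A genes, outside the rule, gave 1 lower, 0 higher and 3 not past among 4 tested. Over all tested probe sets 25.2% were lower and 23.7% higher. The lower one, 214290_s_at (H2AC18 and H2AC19), had a mean of 10.65 log2 in DMSO and 10.35 with teriflunomide. Its change was -0.30 (SE 0.06, limma adjusted p = 0.0119).

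The linker, H3 and H4 members of the replication-dependent class showed no call. H1-2, a linker histone, read 10.47, 10.43 and 10.40 in DMSO and 10.62, 10.64 and 10.34 with teriflunomide. Its groups overlapped, and the change of 0.10 had a 95% interval of -0.13 to 0.33 (limma adjusted p = 0.412). H4C11 read 7.67 on 5 arrays, the same value to the last digit, and 7.68 on the other, so its probe set gives no usable measure of change. The 3 tested H3 probe sets (H3C2, H3C6 and H3C8) had means under log2 5. Their changes lay between -0.04 and 0.00 and did not pass, which does not show that none took place. A probe set annotated to 10 H3 genes and H2AC7, outside the rule and also under log2 5, read 3.70, 3.41 and 3.45 in DMSO and 2.83, 2.78 and 2.90 with teriflunomide, and fell by 0.68 (SE 0.09, limma adjusted p = 0.00228). Of the others of this kind, 206110_at (the same 10 H3 genes) and 214522_x_at (H3C4 and H2AC7) did not pass, and 214646_at was not tested. The share of lower calls over all tested probe sets was 25.2%. A probe set annotated to 14 H4 genes, outside the rule, was bright at 14.72 ± 0.02 in DMSO and 14.30 ± 0.10 with teriflunomide and fell by 0.42 (SE 0.06, limma adjusted p = 0.00264), while the others of H4 did not pass or were not tested.

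Among the variants, H1-10 rose most. It encodes a linker histone (H1x) expressed outside S phase. Its probe set read 10.76, 10.87 and 11.08 in DMSO and 12.08, 11.63 and 11.70 with teriflunomide, so that each teriflunomide array lay above each DMSO array. The change was 0.90 (SE 0.15, limma adjusted p = 0.00558), or 1.86-fold. It carries the _s_at suffix, which marks probes shared among transcripts.

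H2AX, the variant phosphorylated around DNA double-strand breaks, fell on both of its bright probe sets. On 205436_s_at it read 11.87, 11.84 and 11.86 in DMSO and 11.17, 11.24 and 11.23 with teriflunomide, a change of -0.64 (SE 0.03, limma adjusted p = 0.000137), or 1.56-fold lower. On 213344_s_at it read 7.54, 7.73 and 7.91, then 7.24, 7.32 and 7.17, a change of -0.48 (SE 0.10, limma adjusted p = 0.0134) that did not pass with no filter. The groups overlapped on neither. Another, dim H2AX probe set stood at -0.52 (limma adjusted p = 0.131).

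H2AZ1, the main gene of the promoter-associated variant H2A.Z, was among the steadiest members. On 200853_at it read 15.18, 15.18 and 15.17 in DMSO and 15.16, 15.15 and 15.17 with teriflunomide. The change was -0.02 with a 95% interval of -0.09 to 0.05, and the other probe set gave -0.08 with an interval of -0.22 to 0.06. These were among the brightest readings of the array, and whether signal at that level still follows abundance was not tested.

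H2AZ2, the second H2A.Z gene, had 4 bright probe sets that did not move together. On 212206_s_at it read 11.12, 11.09 and 11.19 in DMSO and 10.54, 10.57 and 10.62 with teriflunomide, a fall of 0.55 (-0.55, SE 0.04, limma adjusted p = 0.000383). On 212205_at it read 13.87, 13.75 and 13.78 and then 13.48, 13.42 and 13.43, a change of -0.36 (SE 0.04). On 227085_at the arrays read 10.61, 10.66 and 10.61 and then 10.88, 10.87 and 10.84, a rise of 0.24 (SE 0.03, limma adjusted p = 0.0021) that was lost with arrays centred on poly-A spikes. On 202487_s_at they read 13.74, 13.85 and 13.81 and then 13.91, 14.01 and 13.97, a rise of 0.16 (SE 0.05, limma adjusted p = 0.0325). That last call was lost under 7 of the 16 alternatives that gave it a value: no filter, centring on the median, centring on poly-A spikes, and without DMSO replicate 1 or 3 or teriflunomide replicate 2 or 3. Within each array, 227085_at minus 212206_s_at went from -0.51 ± 0.07 to 0.29 ± 0.06 (mean ± SD, 3 arrays each), a pair chosen as the largest rise and the largest fall and therefore not tested. No single direction can be given for H2AZ2. Of 6081 genes with at least 2 tested probe sets, 8.35% had calls in both directions, and of the 4 such histone genes H2AZ2 was the 1 that did.

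H3-3A and H3-3B encode the same protein, the replacement histone H3.3. The 1 probe set of H3-3A alone read 7.08, 7.06 and 7.18 in DMSO and 6.94, 7.14 and 6.97 with teriflunomide, and its change of -0.09 (95% interval -0.27 to 0.08, limma adjusted p = 0.324) did not pass. Another 8 probe sets name both genes and lie outside the rule, with 3 higher, 1 lower and 4 not past. Beside them, 25.2% of all tested probe sets were lower and 23.7% higher. Each of the 8 names 1 further symbol: the 3 higher and the 1 lower also name MIR4738, and the 4 not past also name H3P6. On 211998_at the signal went from 12.62, 12.65 and 12.67 to 11.11, 11.08 and 11.05, a change of -1.57 (SE 0.03, limma adjusted p = 2.83e-05). On 211997_x_at it went from 14.80, 14.80 and 14.78 to 15.18, 15.24 and 15.23, a rise of 0.42 (SE 0.03, limma adjusted p = 0.000315). The difference between these 2 probe sets, array by array, was 2.15 ± 0.04 log2 in DMSO and 4.13 ± 0.06 with teriflunomide (mean ± SD, 3 arrays each), again the largest rise against the largest fall and not tested. H2AZ2 and the H3.3 genes thus each had bright probe sets that parted under the drug.

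**Figure D2:**
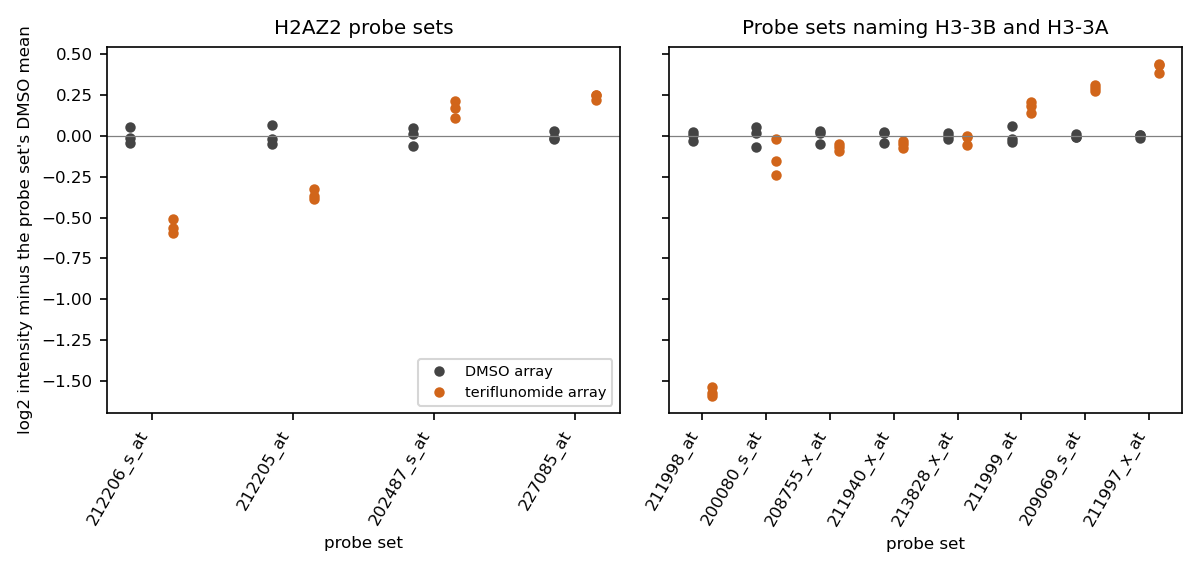
Log2 intensity on each array minus the probe set's DMSO mean for the 4 H2AZ2 probe sets (left) and the 8 probe sets that name both H3-3B and H3-3A (right), ordered by their change; each point is 1 array, grey for DMSO and orange for teriflunomide. In each panel some probe sets lie below 0 and others above it with teriflunomide, from -1.57 on 211998_at to 0.42 on 211997_x_at.

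The remaining variants were few. H2BW4P, annotated as a pseudogene of the testis H2B genes, read 7.38, 7.40 and 7.20 in DMSO and 6.76, 6.56 and 6.40 with teriflunomide, a change of -0.76 (SE 0.11, limma adjusted p = 0.00341). H2AJ was dim, between log2 4.01 and 4.09 on every array of its 1 tested probe set, and its other probe sets were not tested. With 1 value per gene, the brightest probe set standing for it, 7 histone genes were lower and 3 higher among 26, where 28.9% of 11998 genes were lower and 29.7% higher. The 3 higher include H2AZ2 by a probe set that rose by 0.16, though no single direction can be given for that gene.

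**Figure D3:**
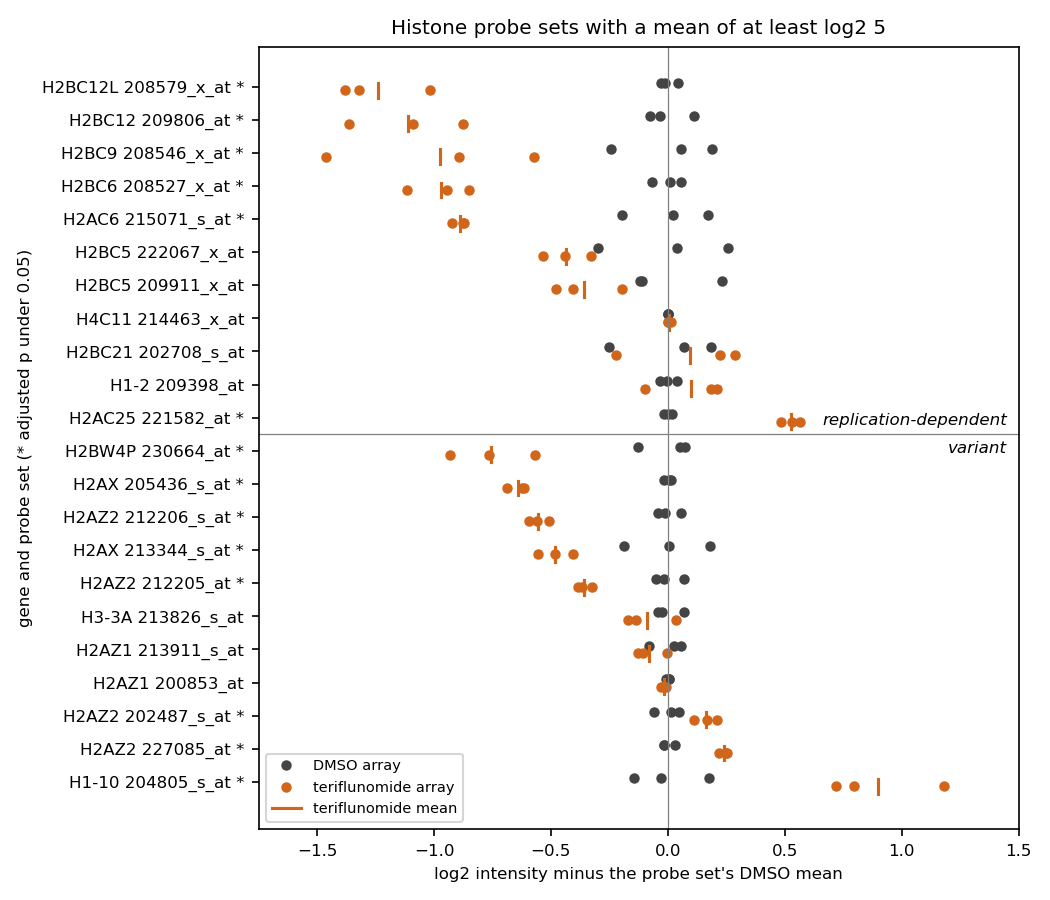
Log2 intensity on each array minus the probe set's DMSO mean, for the 22 histone probe sets with a mean of at least log2 5, replication-dependent above the line and variant below; points are arrays, the short bar is the teriflunomide mean, and an asterisk marks an adjusted p under 0.05. H2BC12L, H2BC12, H2BC9, H2BC6 and H2AC6 lie farthest left, H2AZ1 lies near 0 as does H4C11, which has 1 value on 5 of its arrays, and H1-10 lies farthest right.

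Genes that make, process and place histones were read from lists, with 1 value per gene. Of 24 tested genes of histone transcription and mRNA 3' end processing, 12 were lower, 3 higher and 9 not past, with a median log2 fold change of -0.17, against the 28.9% lower, 29.7% higher and median of 0.00 of all genes. CSTF3 (-0.69, SE 0.06), of the cleavage stimulation complex, UPF1 (-0.64, SE 0.11), the helicase that starts histone mRNA decay, and NCBP1 (-0.64, SE 0.05), of the nuclear cap-binding complex, fell most. The other 2 CSTF3 probe sets stood at 0.23 and 0.31 and the other UPF1 probe set at -0.12, none of them past the threshold, so the falls of CSTF3 and UPF1 rest on 1 probe set each. SLBP, which binds the histone stem-loop, read 13.57, 13.66 and 13.56 log2 in DMSO and 13.41, 13.37 and 13.39 with teriflunomide, a fall of -0.21 (SE 0.04, limma adjusted p = 0.00541). NPAT, the coactivator of the histone clusters, changed by -0.32 (SE 0.06), and on its second bright probe set by -0.15, which did not pass. CASP8AP2, its partner at those clusters, stood at -0.01 (SE 0.03). The 3 that rose were LSM10 (0.48, SE 0.03) and LSM11 (0.38, SE 0.06), both subunits of the U7 particle that cuts histone pre-mRNA, and the polyadenylation factor CPSF4 (0.45, SE 0.03); the last pair was chosen after their values were seen.

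Of 25 histone chaperone and assembly genes, 12 were lower, 2 higher and 11 not past, with a median of -0.15. Of all genes, 28.9% were lower and 29.7% higher. HIRA (-0.84, SE 0.09), which places H3.3 outside replication, NASP (-0.65, SE 0.05), which keeps the soluble pool of H3 and H4, and IPO4 (-0.61, SE 0.11), an importin of H3 and H4, fell most, and VPS72, of H2A.Z deposition, rose by 0.54 (SE 0.04). CAF-1 loads H3 and H4 at forks, and its subunits CHAF1A and CHAF1B did not pass. They stood at -0.08 and -0.13 (limma adjusted p = 0.474 and 0.0854). Its subunit RBBP4, named after its values were seen, was lower (-0.21, SE 0.03, limma adjusted p = 0.00304), though not on every probe set. Of the ASF1 chaperones that hand H3 and H4 to CAF-1, ASF1B stood at 0.09 and did not pass. ASF1A, named after its values were seen, fell by 0.50 (SE 0.06, limma adjusted p = 0.000851) and on its other probe set by 0.88. Core histone variants named outside the rule numbered 3. CENPA, the centromeric H3, changed by -0.26 (SE 0.06), MACROH2A1 by -0.16 (SE 0.05) and MACROH2A2 by -0.09 (limma adjusted p = 0.257). Of MACROH2A1's 5 tested probe sets, 2 were lower and 3 did not pass.

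Of 31 S phase genes, 18 were lower, 2 higher and 11 not past, with a median of -0.35, against 28.9% lower and 29.7% higher of all genes. The largest falls were CCNE1 (-0.85), POLA1 (-0.84) and CHEK1 (-0.83), and PRIM1 rose by 0.50. Single probe sets went the other way: of the 4 of CHEK1, 2 were lower (-0.83 and -0.65), 1 higher (0.11, limma adjusted p = 0.0466) and 1 not past, and the dimmer of the 2 of CDT1 was higher (1.23, SE 0.16, limma adjusted p = 0.00213) while the brighter did not pass. These probe sets were named after their values were seen. The part of the S phase genes' changes in the histone values was not tested.

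**Figure D4:**
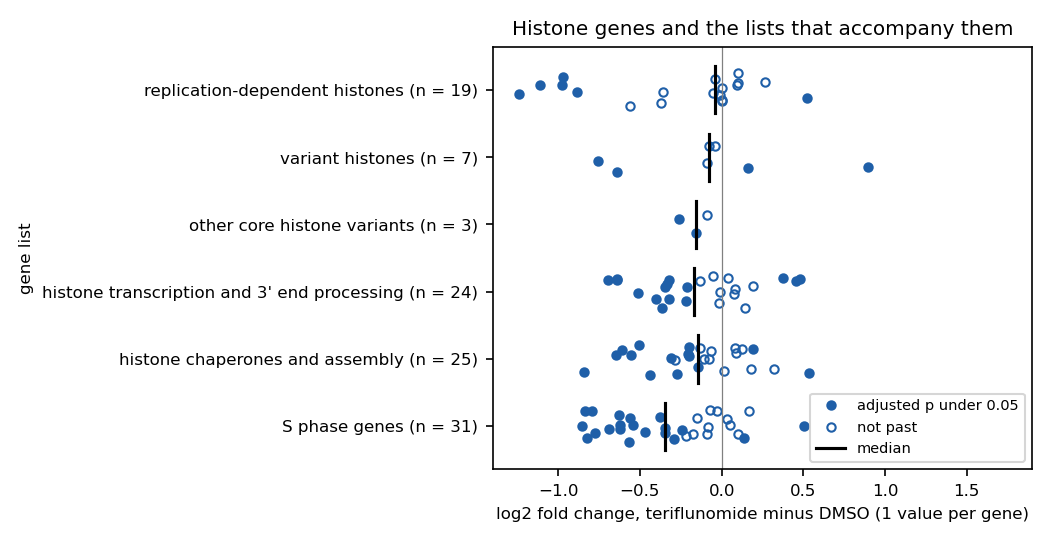
Log2 fold change (teriflunomide minus DMSO, 1 value per gene) for tested histone genes by class and for the 4 lists beside them; each point is a gene, filled where the adjusted p was under 0.05, the black bar is the list's median, and vertical position within a row is arbitrary. The replication-dependent histones spread from -1.24 (H2BC12L) to 0.53 (H2AC25), and the S phase list has the lowest median, -0.35.

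On the arrays as a whole, Pearson's r over all probe sets was 0.998 to 0.999 within groups and 0.989 to 0.990 between them. Of the neuroblastoma markers listed, ELAVL4, GATA3, HAND2, ISL1, MYCN and PHOX2A had means of at least log2 5, while TH, DBH and STMN2 were under it. Blood, epithelial and endothelial markers were under log2 3 in all 10 measured genes, and 4 of 6 fibroblast markers were above log2 5. Summed over all 6 fibroblast markers, the log2 level was 42.2 to 42.6 in DMSO and 43.9 to 44.5 with teriflunomide. The 3' control probe set of ACTB exceeded the 5' one, which tells of RNA integrity, by 1.36 ± 0.03 log2 under DMSO and by 1.62 ± 0.07 under the drug (mean ± SD of 3 arrays, two-sided exact permutation p = 0.1, the smallest that 3 arrays against 3 allow), and for GAPDH 0.05 and 0.06 (exact permutation p = 0.4). The part of the fibroblast markers or of the ACTB signal in the histone results was not tested.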

How the data were processed

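Total RNA from 6 samples of IMR32 was hybridised, biotin-labelled, to Affymetrix arrays. The deposited log2 values, for each array and probe set, are the authors' own; the submitters' processing notes name GCRMA, whose version is not given in the sources used here. GCRMA's quantile step equalises the arrays' distributions, and a shift shared by all genes would not show, and its background step sets a floor. Depth is not defined for arrays; their number limits precision. Gene names came from the platform annotation, and all 78 member probe sets matched the reference gene table by gene identifier. Promoters came from RefSeq (GRCh38.p14). limma 3.58.1 (R 4.3.3; lmFit, eBayes, no covariates) was fitted over 27290 non-control probe sets at or above the array median on at least 3 of 6 arrays, two-sided, with Benjamini-Hochberg adjustment over all of them and a threshold of 0.05, and again over 11998 genes, each by its brightest probe set. On simulated data (27290 probe sets, 27090 of them left unchanged), 48% of those changed by log2 0.5, 78% by 1 and 96% by 2 were called. There were 4 false calls. In the measured data 48.8% of probe sets were called, a far larger share, so these rates need not hold for this comparison. Python 3.11.15 was used for sequences and drawing. Members and lists were chosen with earlier results of these data known. Named genes: any tested member; per-array values for the 4 largest called changes in each direction and class and for listed variants; per list, the 3 largest called changes, the largest opposite one and 10 genes fixed by name. Alternatives covered the filter, scaling, a raised floor, eBayes settings, array weights, the replicate block, probe set choice and leaving out each array. The probe sets with several symbols were fitted alongside and are given as such.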

Additional observations from a re-analysis of the deposited data

How the results depend on the processing

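Of the 14 called members, 10 stayed past the threshold in the same direction under every alternative tried on them; H2BC9, H2AX on 213344_s_at and H2AZ2 on 202487_s_at and 227085_at did not, and 0 members reversed. With a filter at the 75th percentile the replication-dependent members numbered 2 lower (2 genes, both H2B probe sets) with a median log2 fold change of -0.51. The variants numbered 3 lower probe sets with a median of -0.048, and 1 lower gene in the separate fit with 1 value per gene. Other gene counts in this paragraph also come from a fit with 1 value per gene. With no filter the medians were 0 and -0.000371, and with values under log2 5 raised to 5 the replication-dependent median was 0; array weights gave -0.083. Kept to means of at least log2 5, a setting chosen after seeing the data, that median was -0.43. Without _x_at and _s_at members, 1 replication-dependent probe set was lower (1 H2B, median 0), and of the variants 2 were lower and 1 higher (median -0.19). Arrays centred on poly-A spikes, which moved the median of all probe sets to -0.09, gave 9 lower replication-dependent probe sets (8 genes, median -0.13), 1 higher variant probe set (1 gene, median -0.18) and 1 higher gene each among chaperones and S phase genes. Shares of all probe sets called are not given here for this setting, the 75th percentile filter or the left-out arrays. The member counts under them therefore have no background beside them. Higher variant genes numbered 1 when a gene's probe sets were averaged and with plain suffixes preferred. Of the 3 other core variants, 1 was lower with no filter, centring on the median, quantile normalization, poly-A centring and plain suffixes. Leaving out 1 array at a time, lower replication-dependent probe sets numbered 4 to 5 and higher ones 1 to 2 (genes 4 to 6 and 1 to 2), with medians of -0.13 to -0.027; the second rise was H1-2, without teriflunomide replicate 3. Variants numbered 5 lower and 2 to 3 higher probe sets, with medians of -0.15 to -0.056, and 2 lower and 1 to 2 higher genes; the other core variants numbered 1 to 2. The cause of these moves was not tested beyond the members each setting keeps. The replicate numbers were not shown to pair the arrays (correlations of deviations 0.13, 0.15 and -0.05). With the replicate block, 6361 probe sets were lower and 5925 higher against 6873 and 6458 without it, lower replication-dependent probe sets numbered 6, since 1 H2BC5 probe set also passed. Dim signal over background limits the other 45 members, which the array median filter left out.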
